A study of Mus musculus with 18 samples.

Results

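Glutathione and NRF2 antioxidant genes were examined in 18 RNA-seq libraries of whole mouse lenses. The set was chosen by name, with earlier results of these data known. It holds 10 protein-coding genes of the 40800 Ensembl genes in the count table: Gclc, Gclm, Gss, Gsr, Nqo1, Hmox1, Txnrd1, Srxn1, Gpx1 and Prdx6. All 10 were found by symbol, and all 10 were among the 13938 genes with enough counts to be tested. The libraries came from 2 lines of C57BL/6J knock-in mice. One line carries the R49C mutation in the αA-crystallin gene (Cryaa-R49C) and was sampled at 2 days of age. The other carries R120G in the αB-crystallin gene (Cryab-R120G) and was sampled at 14 days. Each line had WT, heterozygous (het) and homozygous (homo) lenses, with 3 libraries of pooled whole lenses in each of the 6 groups. The mutations were made in the mouse's own crystallin genes by embryonic stem cell techniques, so no transgene or Cre promoter sets where they act, and the WT mice were matched for age and strain. Line and age change together in this design and cannot be told apart. In RNA from pooled whole lenses, fewer cells of a type and less RNA per cell cannot be told apart.

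Glutathione is the main small thiol of the lens, where it keeps crystallin thiols reduced and detoxifies peroxides. It is made in a pair of steps, of which the first, joining glutamate and cysteine, is catalysed by the GCLC enzyme subunit with its modifier GCLM, and the second by glutathione synthetase (GSS). Glutathione reductase (GSR) and thioredoxin reductase (TXNRD1) use NADPH to return the oxidised partners to their reduced form. GPX1 and PRDX6 remove peroxides, and sulfiredoxin (SRXN1) repairs peroxiredoxins that have become overoxidised. NQO1 reduces quinones, and heme oxygenase (HMOX1) breaks down heme. NRF2, the product of Nfe2l2, is a transcription factor that KEAP1 holds at a low level until oxidants or electrophiles modify KEAP1. It then binds antioxidant response elements, and Gclc, Gclm, Txnrd1, Srxn1, Nqo1 and Hmox1 are among its best-known targets.

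RefSeq promoter windows, from 250 bases before to 50 bases after a transcription start, were matched for 6 members (Gclm, Gss, Txnrd1, Gpx1, Srxn1 and Nqo1). The windows numbered 8 because Txnrd1 has several starts. They were searched on both strands for the antioxidant response element letters TGACNNNGC, which 12.4% of 32851 promoter windows of the same length held. Gclm, 1 of the 3 Txnrd1 windows and Srxn1 held a match, and each match lay on the strand opposite to the gene. No match to these letters was found in the windows of Gss, Gpx1 and Nqo1. The 3 sequences with a match are shown. Srxn1 and Txnrd1 were called higher in Cryaa-R49C-homo lenses (below). Gclm, at 1.62 times WT, was not called (edgeR adjusted p = 0.199). A link between a match and a level was not tested, and Gclc, Gsr, Hmox1 and Prdx6 had no window to search. Gclm and Txnrd1 are given as the 250 bases before the start on the gene's strand, all in the GRCm38.p6 assembly, with the match in capitals. For Srxn1 a 30-base stretch is given, because its match begins 29 bases after the start.
Gclm, chr3:122245307-122245556, plus strand: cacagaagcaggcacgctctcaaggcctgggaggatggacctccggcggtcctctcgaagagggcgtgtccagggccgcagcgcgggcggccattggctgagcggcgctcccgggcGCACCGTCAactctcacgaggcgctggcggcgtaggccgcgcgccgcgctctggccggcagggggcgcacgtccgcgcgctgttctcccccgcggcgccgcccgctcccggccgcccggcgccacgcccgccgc
Txnrd1, chr10:82858956-82859205, plus strand: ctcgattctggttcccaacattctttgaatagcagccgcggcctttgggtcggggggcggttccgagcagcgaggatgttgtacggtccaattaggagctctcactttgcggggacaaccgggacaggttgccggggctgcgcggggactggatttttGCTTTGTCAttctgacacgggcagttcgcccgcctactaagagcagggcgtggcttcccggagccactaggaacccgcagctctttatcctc
Srxn1, chr2:152105542-152105571, plus strand: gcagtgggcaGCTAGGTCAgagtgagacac
The Gclm match begins 134 bases and the Txnrd1 match 92 bases before the start. A match describes these letters and was not tested as a binding site. The letters TGATGNAA, of the element that ATF4 and CHOP bind, were in 3.97% of all windows and in 0 of the 8 member windows.

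Levels are given as CPM, each count over its library total after the library scaling known as TMM, and differences as log2 fold changes ± SE from edgeR's quasi-likelihood test with Benjamini-Hochberg adjustment over all tested genes. A gene was called where its adjusted p was at most 0.05. Library totals lay between 14272174 and 29639719 counts. The non-coding gene Gm42418 took 2.53% to 42.6% of a library, and the crystallin genes took 23.8% to 76.1%. The lens identity of the libraries was clear from the fibre cell markers: 10 of 11 were detected, while Lim2 was listed at 0 in all libraries. Cryaa-R49C-homo replicate 1 stood apart from replicates 2 and 3. Its crystallin share was 61.2%, against 37.7% and 23.8%, and its Gm42418 share was 2.53%, against 24.5% and 42.6%. The counts of called members that rest on this group are therefore given with and without that library. Those of the gene lists are given both ways for Cryaa-R49C-homo against Cryaa-WT.

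In WT lenses the members covered a wide range of levels. Per kilobase of exonic length, the scale used for comparing genes, Hmox1 and Gpx1 led at 2 days, with 201 ± 54.9 and 193 ± 37.6 CPM per kb (SD, n = 3), and their libraries overlapped. Gss followed at 32.8 ± 5.88 CPM per kb and Prdx6 at 7.26 ± 1.05 CPM per kb, each clear of its neighbours. From Gclc at 2.70 through Gclm, Gsr and Txnrd1 to Nqo1 at 0.86 CPM per kb, each gene overlapped the next in the order. Srxn1 came last, at 0.45 ± 0.14 CPM per kb, and its libraries lay below those of Nqo1. At 14 days Hmox1 stood alone at the top of the WT order, with 1362 ± 236 CPM per kb, followed by Gpx1 with 287 ± 13.7 CPM per kb and Gss with 42.8 ± 7.83 CPM per kb. Gclc had passed Prdx6, with 11.6 ± 1.26 against 9.76 ± 0.53 CPM per kb, and their libraries did not overlap. The bottom of the order, Gsr, Nqo1, Srxn1 and Txnrd1, lay between 0.66 and 1.04 CPM per kb, with every neighbour overlapping. Read counts behind these levels differed as widely. A library held 3164 to 56611 reads of Hmox1 but 9 to 112 reads of Nqo1 and 12 to 203 reads of Srxn1, so the low members have a larger counting error.

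**Figure D1:**
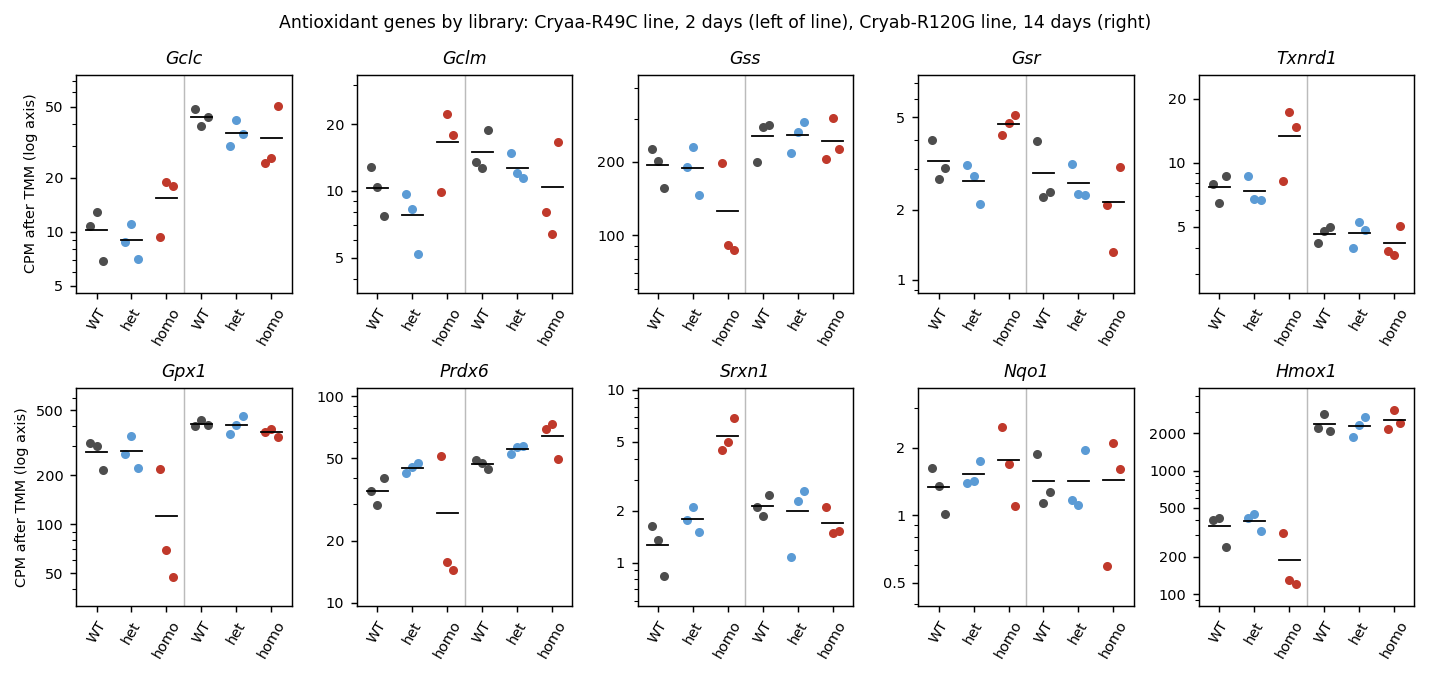
CPM after TMM scaling, on a log axis, of the 10 genes in each library. Points are libraries (3 per group), bars are group means, black is WT, blue het and red homo. The 2-day Cryaa-R49C line is left and the 14-day Cryab-R120G line right of the grey line. Srxn1 lies at 4.47 to 6.84 CPM in the 3 Cryaa-R49C-homo libraries and at most at 1.62 CPM in Cryaa-WT, and Hmox1 lies higher in all 9 libraries at 14 days than in the 9 at 2 days.

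The first comparison asked whether homozygous Cryaa-R49C lenses differed from WT lenses at 2 days. Srxn1 and Txnrd1 rose and Gpx1 fell, so 3 of 10 members were called, against 9.79% of all tested genes. The median log2 fold change was 0.47 over the members and 0.00 over all genes. Groups that did not overlap were found for 2 of 10 members, Srxn1 and Gsr, both higher in homo, against 24.5% of all genes.

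Srxn1, the sulfiredoxin gene, had the largest difference of the 10. Its level was 1.62, 1.35 and 0.84 CPM in Cryaa-WT replicates 1 to 3 and 4.47, 5.0 and 6.84 CPM in Cryaa-R49C-homo replicates 1 to 3. All 3 homo libraries lay above all 3 WT libraries, including replicate 1, which lay within the WT range for 6 of the other 9 members. The fold was 4.28, with a log2 fold change of 2.10 ± 0.31 and an adjusted p of 0.000108 (edgeR). Srxn1 was called in every alternative fit of this comparison, with log2 fold changes between 1.86 and 2.55. The Cryaa-R49C-het libraries, at 1.77, 2.09 and 1.5 CPM, overlapped WT and lay below all homo libraries, with replicates 1 and 2 above every WT library.

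Txnrd1, the cytosolic thioredoxin reductase and a selenoprotein, was at 7.92, 6.45 and 8.65 CPM in WT and at 8.21, 17.3 and 14.7 CPM in homo. Homo replicates 2 and 3 were above every WT library and replicate 1 was within the WT range. The log2 fold change was 0.80 ± 0.24 (edgeR adjusted p = 0.0370). Gpx1, the main cytosolic glutathione peroxidase and also a selenoprotein, was at 316, 301 and 216 CPM in WT and at 219, 69.3 and 47.1 CPM in homo. Again replicate 1 was within the WT range and the other two lay far below it, and the log2 fold change was -1.31 ± 0.37 (edgeR adjusted p = 0.0265). The calls of Txnrd1 and Gpx1 depended on single libraries. The adjusted p of Txnrd1 lay between 0.000560 and 0.202 and that of Gpx1 between 2.28e-07 and 0.130 (edgeR) when each of the 6 libraries was left out in turn, and both calls were lost without WT replicate 1, WT replicate 2, homo replicate 2 or homo replicate 3, as was that of Txnrd1 without WT replicate 3. With only the 6 libraries of the comparison the adjusted p (edgeR) was 0.177 for Txnrd1 and 0.210 for Gpx1, and with library size alone it was 0.215 for Gpx1.

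The 3 genes of glutathione synthesis were not past the threshold in edgeR, and they lay on both sides of zero. Gclc was at 10.8, 12.9 and 6.87 CPM in WT and at 9.34, 19.1 and 18.1 CPM in homo (log2 fold change 0.61 ± 0.30, edgeR adjusted p = 0.224). Gclm, its modifier subunit, was at 12.9, 10.4 and 7.67 CPM in WT and at 9.91, 22.3 and 17.8 CPM in homo (0.69 ± 0.33, edgeR adjusted p = 0.199). For both subunits, homo replicates 2 and 3 were above all WT libraries and replicate 1 was among them. Gss was at 225, 200 and 156 CPM in WT and at 198, 90.9 and 87.3 CPM in homo (-0.63 ± 0.28, edgeR adjusted p = 0.169). Here replicates 2 and 3 were below all WT libraries. Gss was called by the likelihood-ratio test (-0.90, adjusted p = 0.00777), and Gclc (1.06, edgeR adjusted p = 0.00802) and Gclm (1.13, edgeR adjusted p = 0.0197) were called with library size alone, where the median of all genes was 0.41.

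The remaining 4 members were not past the threshold in edgeR either. Gsr, the glutathione reductase gene, was at 4.0, 2.70 and 3.01 CPM in WT and at 4.18, 4.75 and 5.10 CPM in homo, without overlap (log2 fold change 0.53 ± 0.28, edgeR adjusted p = 0.263). Hmox1 was at 399, 416 and 242 CPM in WT and at 313, 129 and 120 CPM in homo (-0.91 ± 0.31, edgeR adjusted p = 0.0686). Homo replicates 2 and 3 had less Hmox1 than any WT library and replicate 1 lay within the WT range. Hmox1 was called by DESeq2 (adjusted p = 0.0342), by the likelihood-ratio test (adjusted p = 0.000244) and by edgeR with every gene with at least 1 count (adjusted p = 0.0402). Prdx6 was at 34.8, 29.8 and 39.9 CPM in WT and at 51.3, 15.8 and 14.5 CPM in homo (-0.35 ± 0.32, edgeR adjusted p = 0.556), so that replicate 1 was the highest and replicates 2 and 3 the lowest of the 6 libraries. Prdx6 was called by the likelihood-ratio test (adjusted p = 0.000909). RefSeq lists related copies of this gene, and their part in its counts was not tested. Nqo1 was at 1.62, 1.35 and 1.02 CPM in WT and at 2.47, 1.70 and 1.10 CPM in homo, with overlap (0.42 ± 0.39, edgeR adjusted p = 0.561).

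**Figure D2:**
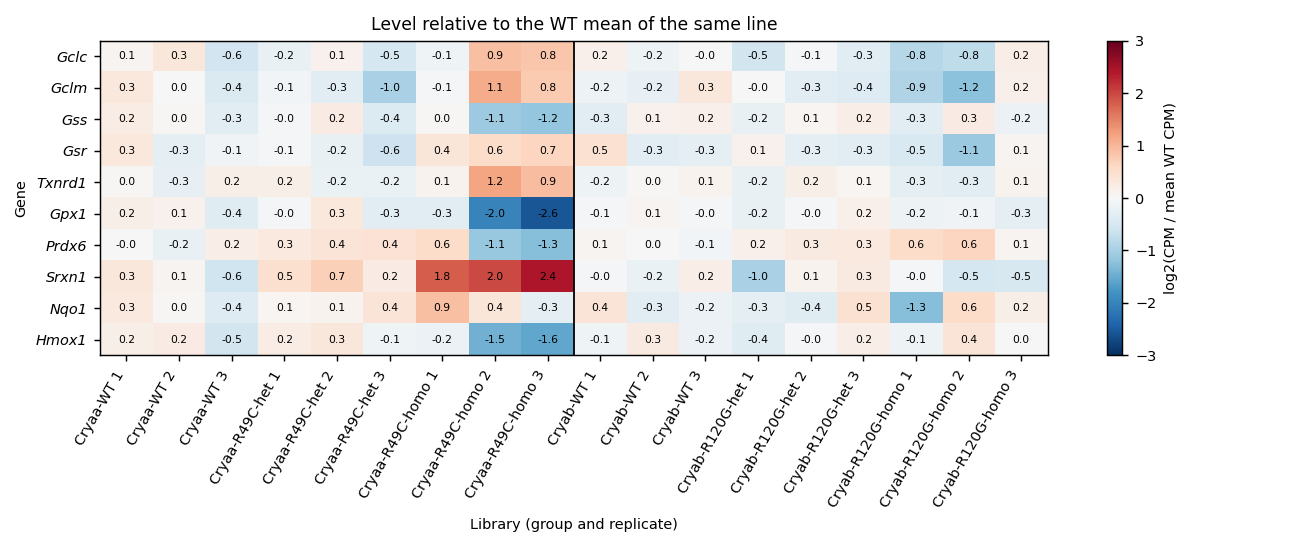
Heat map of log2(CPM / mean WT CPM of the same line) for each gene (rows) in each library (columns); red is above and blue below the WT mean, and the black line separates the lines. In Cryaa-R49C-homo replicates 2 and 3, Gclc, Gclm, Gsr, Txnrd1 and Srxn1 are red and Gss, Gpx1, Prdx6 and Hmox1 blue, while replicate 1 is strongly coloured mainly for Srxn1.

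Without Cryaa-R49C-homo replicate 1, 8 of 10 members were called, 4 higher and 4 lower, against 21.5% of all genes in that fit. Srxn1 (log2 fold change 2.22), Txnrd1 (1.06), Gclm (0.96) and Gclc (0.87) were the 4 higher members. Gpx1 (-2.26), Hmox1 (-1.5), Prdx6 (-1.20) and Gss (-1.13) were the 4 lower members, and Gsr and Nqo1 were not called. The 4 members that lay lower include the 3 most abundant members per kilobase, Hmox1, Gpx1 and Gss.

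Markers of lens cell types and of other cells were read in the same libraries. The summed level of the 11 fibre markers was 80468 to 120809 CPM in Cryaa-WT, 101744 CPM in homo replicate 1, and 48093 and 39281 CPM in homo replicates 2 and 3. Of the 10 fibre markers tested, 5 fell and 0 rose. The 7 epithelium markers summed to 134 to 163 CPM in WT and 111 to 129 CPM in homo, with 1 fallen and 0 risen.
The 13 macrophage and microglia markers summed to 11.3 to 26.8 CPM in WT and 28.9 to 54.6 CPM in homo, with 2 risen, and the 8 vessel markers to 39.7 to 61.5 CPM in WT and 45.3 to 175 CPM in homo, with 3 risen. Of the 7 pigment cell markers 2 fell, with sums of 18.4 to 35.1 CPM in WT and 8.9 to 15.0 CPM in homo. No erythrocyte marker (of 5 tested) and no retina marker (of 9) was called, and the sums were 36.8 to 57.8 CPM in WT and 41.5 to 150 CPM in homo for erythrocytes, and 16.0 to 59.5 and 17.0 to 27.5 CPM for retina. All 3 homo libraries lay outside the WT range for the epithelium, macrophage and pigment cell sums, and for the fibre and vessel sums replicates 2 and 3 did and replicate 1 did not. No list but the fibre markers had a gene at 0 in all libraries of either group. Without homo replicate 1, where 21.5% of all genes were called, 8 macrophage and microglia markers and 5 vessel markers rose, and 6 fibre, 1 epithelium and 4 pigment cell markers fell. The part of these cell types in the differences of the members was not tested.

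The genes around the members were read from lists of related genes, whose counts stand beside the 9.79% of all genes called in this comparison. Of 11 NRF2 regulators, 2 rose and 0 fell. They were Sqstm1, the autophagy receptor p62, which binds KEAP1, at 24 ± 4.30 CPM in WT and 134 ± 40.4 CPM in homo (SD, n = 3; log2 fold change 2.48 ± 0.29), and Nfe2l1, an NRF2-related factor, at 13.7 ± 2.62 and 30.3 ± 12.8 CPM (1.15 ± 0.27). Nfe2l2 itself was not called, at 11 ± 0.84 and 12.4 ± 2.91 CPM (0.18 ± 0.22, edgeR adjusted p = 0.672). Keap1, at 5.12 ± 0.78 and 6.94 ± 0.48 CPM, was not called either (0.44 ± 0.21, edgeR adjusted p = 0.212).

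Of 18 other NRF2 targets tested, 2 rose and 0 fell. They were Osgin1, at 0.12 ± 0.10 CPM in WT and 2.24 ± 1.22 CPM in homo (log2 fold change 4.17 ± 0.71), and Ephx1, a microsomal epoxide hydrolase, at 2.25 ± 0.45 and 4.75 ± 1.39 CPM (1.09 ± 0.28). That is a share near the background, and the median log2 fold change of this list was -0.02, near that of all genes. Of 9 cysteine supply genes tested, 2 rose and 0 fell. Cth, which makes cysteine from cystathionine, was at 0.37 ± 0.25 CPM in WT and 3.85 ± 1.05 CPM in homo (3.34 ± 0.52), and the neutral amino acid transporter gene Slc1a4 was at 3.67 ± 1.21 and 9.54 ± 0.91 CPM (1.38 ± 0.27). Slc7a11, the cystine importer, was at 9.72 ± 2.32 and 7.79 ± 2.08 CPM and was not called (-0.32 ± 0.28, edgeR adjusted p = 0.537).

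Of 28 other glutathione enzymes tested, 3 rose and 2 fell. The 3 with the largest differences were Chac1, Ggct and Glrx5. Chac1, which degrades glutathione, was at 0.22 ± 0.05 CPM in WT and 77.5 ± 48.3 CPM in homo (log2 fold change 8.43 ± 0.86). Ggct, which acts on γ-glutamyl peptides of the same cycle, fell from 54.8 ± 14.3 to 17.1 ± 2.58 CPM (-1.68 ± 0.23), and Glrx5, a mitochondrial glutaredoxin, was at 3.35 ± 0.46 and 7.72 ± 4.13 CPM (1.20 ± 0.35). Chac1 is also in the list of ATF4 and CHOP genes, of which 7 of 8 rose and 0 fell. Among those, Trib3, Chac1 and Ddit3, the gene of CHOP, had the largest differences (9.21 ± 0.66, 8.43 ± 0.86 and 5.17 ± 0.31). This list was chosen with earlier results of these data known, so its count is a description.

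Of 16 other thioredoxin and peroxiredoxin genes tested, 1 rose and 2 fell, and all 3 were sestrins, stress proteins that also limit mTORC1 signalling. Sesn2 was at 1.79 ± 0.40 CPM in WT and 16.4 ± 2.24 CPM in homo (log2 fold change 3.18 ± 0.33). Sesn3, at 13.1 ± 3.46 and 5.38 ± 0.15 CPM (-1.28 ± 0.29), and Sesn1, at 13.5 ± 2.41 and 5.89 ± 2.58 CPM (-1.18 ± 0.27), fell. Catalase (Cat) was the 1 gene called of 5 superoxide and catalase genes, at 11.5 ± 2.82 and 20.8 ± 0.60 CPM (0.85 ± 0.25). Of 17 other selenoprotein genes tested, 1 rose and 0 fell: Selenok, an endoplasmic reticulum protein (0.77 ± 0.18). Without Cryaa-R49C-homo replicate 1, where 21.5% of all genes were called, the other glutathione enzymes had 2 risen and 12 fallen genes, the other NRF2 targets 3 and 4, the selenoprotein genes 3 and 4, and the thioredoxin and peroxiredoxin genes 2 and 3. In the same fit 2 superoxide and catalase genes rose and 0 fell, and the NRF2 regulators (2 and 0), the cysteine supply genes (2 and 0) and the ATF4 and CHOP genes (7 and 0) had the same counts as with all libraries.

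The likeness of other genes to the members with the largest called differences was measured by Pearson's r of log2 CPM over the 9 libraries of the Cryaa line, which share their age and line. The pattern of Srxn1 was most like those of 2310039H08Rik (r = 0.99), Nupr1 (r = 0.99) and Tnpo3 (r = 0.98). That of Gpx1 was most like those of Gm17135 (r = 0.996), Tmem17 (r = 0.99) and Akr7a5 (r = 0.99). These values describe the libraries, in which the homo group stands apart, and were not tested.

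Ratios of read counts within a library need no scaling between libraries, and the pairs of genes were chosen after their levels had been seen, so the ratios are a description with no test. Srxn1 reads per Gclm read were 0.110 to 0.130 in Cryaa-WT, 0.183 to 0.287 in Cryaa-R49C-het and 0.224 to 0.451 in Cryaa-R49C-homo. All het and homo libraries lay above WT, and het and homo overlapped. Srxn1 reads per Gpx1 read were 0.00390 to 0.00513 in WT, 0.0060 to 0.00672 in het and 0.0204 to 0.145 in homo, and here the 3 groups did not overlap. Txnrd1 reads per Gpx1 read were 0.0214 to 0.0401 in WT, 0.0193 to 0.0324 in het and 0.0375 to 0.312 in homo, and WT overlapped both.

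Cryaa-R49C-het lenses were then set beside the same WT lenses. None of the 10 members was called by edgeR, against 0.00717% of all genes, 0 had an unadjusted p under 0.05, and 0 were called by DESeq2 or by the likelihood-ratio test. The log2 fold changes lay between -0.41 for Gclm and 0.49 for Srxn1, with SE between 0.24 and 0.39. Groups that did not overlap were found for 1 of 10 members, against 21.9% of all genes. This was Prdx6, at 42.5, 45.4 and 47.3 CPM in het (log2 fold change 0.37 ± 0.32, edgeR adjusted p = 0.844).

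Homozygous Cryaa-R49C lenses were also compared with heterozygous lenses. Srxn1, Gclm and Txnrd1 were higher and Gpx1 and Hmox1 lower in homo, so 5 of 10 members were called, against 8.32% of all genes. Srxn1 differed by 1.60 ± 0.30 on the log2 scale (edgeR adjusted p = 0.00169). Gclm was at 9.70, 8.32 and 5.21 CPM in het, below all homo libraries (1.11 ± 0.33, edgeR adjusted p = 0.0412). Hmox1 was at 414, 447 and 322 CPM in het, above all homo libraries (-1.07 ± 0.31, edgeR adjusted p = 0.0360).
For Gpx1, at 269, 348 and 223 CPM in het, the difference was -1.32 ± 0.37 (edgeR adjusted p = 0.0294), and the highest homo library, replicate 1, lay just under the lowest het library. Txnrd1 overlapped, at 8.72, 6.73 and 6.71 CPM in het (0.86 ± 0.24, edgeR adjusted p = 0.0295). Without homo replicate 1, 9 members were called in this comparison, against 28.7% of all genes. Without homo replicate 2, homo replicate 3 or het replicate 2 the count was 1. In these fits 453 of 14334, 561 of 14379 and 588 of 14457 genes were called. Without het replicate 1 or het replicate 3 the count was 2, with 600 of 14433 and 516 of 14402 genes called. With all libraries 1160 of 13938 genes were called. The call of Gclm was lost without any 1 of the libraries except homo replicate 1, with adjusted p (edgeR) between 0.0603 and 0.248. With only the 6 libraries of the comparison, where 2.20% of all genes were called, Srxn1 alone was called, and the adjusted p (edgeR) was 0.129 for Gclm, 0.175 for Txnrd1, 0.184 for Gpx1 and 0.174 for Hmox1. With library size alone, which moved the calls over all genes from 654 higher and 506 lower to 816 and 203, Hmox1 and Gpx1 were not called (edgeR adjusted p = 0.139 and 0.144), and without the crystallin genes and Gm42418 Hmox1 was not called (edgeR adjusted p = 0.0528). Cell type markers differed in this comparison too, with 4 of 8 vessel and 3 of 13 macrophage and microglia markers higher in homo. Lower were 3 of 10 fibre, 1 of 7 epithelium and 1 of 7 pigment cell markers, and no erythrocyte or retina marker was called. The part of these cell types in the differences of the members was not tested. The homo libraries enter both this comparison and that with WT.

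**Figure D3:**
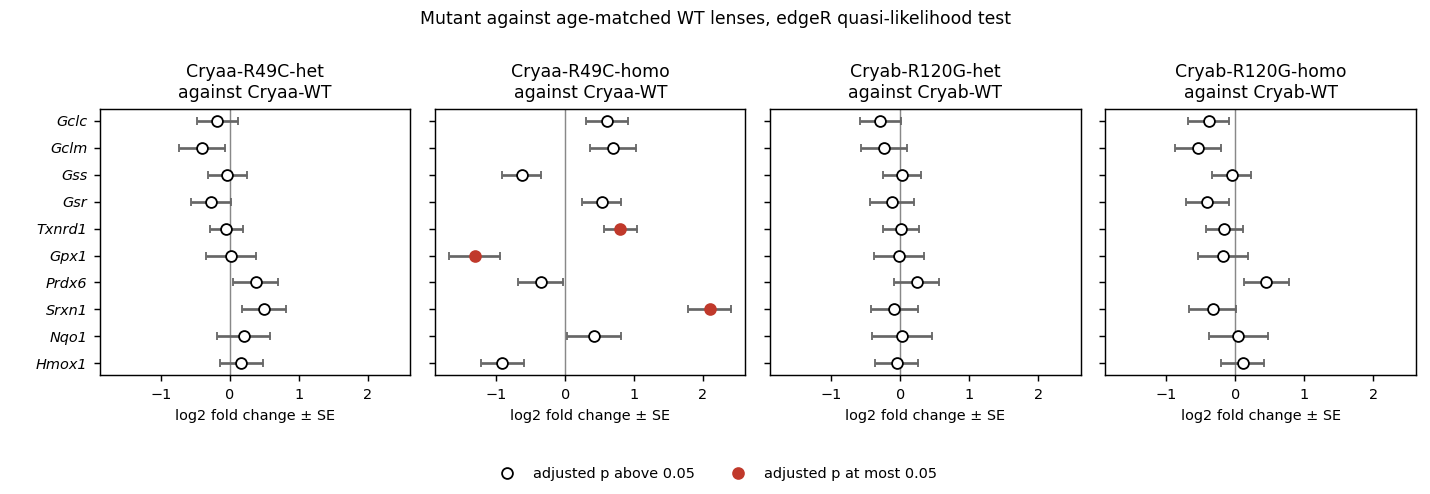
Log2 fold change ± SE (edgeR, 3 libraries per group) of each gene in the 4 comparisons of mutant with age-matched WT lenses. Filled red points have an adjusted p of at most 0.05 and open points do not. Red points appear for Srxn1 (2.10), Txnrd1 (0.80) and Gpx1 (-1.31) in Cryaa-R49C-homo lenses and in no other panel.

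At 14 days, Cryab-R120G-het lenses were compared with Cryab-WT lenses. None of the 10 members was called by edgeR, against 0.00717% of all genes, 0 had an unadjusted p under 0.05, and 0 were called by DESeq2 or by the likelihood-ratio test. The log2 fold changes lay between -0.29 for Gclc and 0.24 for Prdx6. Prdx6 was the 1 member of 10 whose groups did not overlap, against 10.1% of all genes, with 52.3, 56.5 and 57.2 CPM in het and 49.2, 47.2 and 44.2 CPM in WT.

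Homozygous Cryab-R120G lenses were set beside the same 14-day WT lenses. None of the 10 members was called by edgeR, against 0.0502% of all genes, 0 had an unadjusted p under 0.05, and 0 were called by DESeq2 or by the likelihood-ratio test. Gclm had the lowest log2 fold change, -0.54 ± 0.34 (edgeR adjusted p = 0.906), and Prdx6 the highest, 0.45 ± 0.32 (edgeR adjusted p = 0.927). Srxn1 was at 2.09, 1.87 and 2.45 CPM in WT and at 2.10, 1.49 and 1.53 CPM in homo, with overlap (-0.33 ± 0.34, edgeR adjusted p = 0.957).
The groups of 2 members did not overlap, against 9.0% of all genes. Prdx6, at 69.2, 73.0 and 49.9 CPM in homo, lay above WT, and Gpx1, at 370, 385 and 343 CPM in homo against 399, 436 and 405 CPM in WT, lay below it (log2 fold change -0.18 ± 0.36). Gclc was at 48.7, 39.2 and 43.7 CPM in WT and at 24.4, 25.9 and 50.4 CPM in homo. Replicate 3 was the highest of these 6 libraries and replicates 1 and 2 the lowest, and Gclm and Gsr were also highest in replicate 3 within the homo group. Markers of other cells were read in the 14-day groups too. The 7 pigment cell markers summed to 6.2 to 7.6 CPM in Cryab-WT, 17.2 to 51.7 CPM in het and 15.3 to 27.0 CPM in homo, so that WT lay below both. The 13 macrophage and microglia markers summed to 1.3 to 2.9, 2.3 to 5.9 and 2.8 to 8.4 CPM, and the 9 retina markers to 14.9 to 535, 68.2 to 454 and 145 to 848 CPM. The 7 erythrocyte markers summed to 15.6 to 146 CPM in WT, 134 to 451 CPM in het and 49.2 to 178 CPM in homo, and the 8 vessel markers to 11.7 to 16.3, 12.3 to 21.4 and 15.8 to 21.1 CPM. None of the markers tested was called (edgeR) in het or homo against WT, and their part in the values of the members was not tested. No gene of the related lists was called in this comparison.

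Homozygous and heterozygous Cryab-R120G lenses had 0 called members (edgeR), against 0% of all genes. None of the members had an unadjusted p under 0.05, and none was called by DESeq2 or the likelihood-ratio test. The log2 fold changes lay between -0.30 for Gclm and 0.21 for Prdx6.

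The effects of the homozygous mutations in the 2 lines were compared directly, as the log2 fold change of Cryab-R120G-homo against its WT less that of Cryaa-R49C-homo against its WT. Srxn1 was the 1 member of 10 called, against 2.91% of all genes, with a difference of -2.42 ± 0.46 (edgeR adjusted p = 0.00392). It was called in every alternative fit, with differences between -2.62 and -2.19. The next largest were Gclm (-1.23 ± 0.47, edgeR adjusted p = 0.196) and Gpx1 (1.14 ± 0.51, edgeR adjusted p = 0.289). Without Cryaa-R49C-homo replicate 1, 8 members were called, against 12.5% of all genes. Without Cryab-R120G-homo replicate 3 the count was 2, and 362 of 14491 genes were called. Of the 8 ATF4 and CHOP genes, 7 were called lower in this difference. Of the NRF2 regulators, Sqstm1 (-2.90 ± 0.39) and Nfe2l1 (-1.54 ± 0.38) were called. These lists were chosen with earlier results of these data known, and their counts are given here with all libraries only.

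WT lenses of the 2 lines were compared last, which sets 14-day Cryab-WT against 2-day Cryaa-WT lenses. Hmox1 and Gclc were higher and Txnrd1 lower at 14 days, so 3 of 10 members were called, against 23.2% of all genes. Groups that did not overlap were found for 6 of 10 members, against 43.2% of all genes. Hmox1 was at 2197, 2858 and 2098 CPM in Cryab-WT, 6.76 times its level in Cryaa-WT (log2 fold change 2.76 ± 0.33, edgeR adjusted p = 4.26e-06). Its lowest 14-day library, at 1854 CPM in Cryab-R120G-het replicate 1, was above its highest 2-day library, at 447 CPM in Cryaa-R49C-het replicate 2.
Gclc was 4.30 times as high in Cryab-WT, at 39.2 to 48.7 CPM in the 3 libraries (2.11 ± 0.31, edgeR adjusted p = 5.03e-05), while Gclm, at 13.4, 12.7 and 18.8 CPM in Cryab-WT, was not called (0.54 ± 0.33, edgeR adjusted p = 0.257). Txnrd1 was at 4.19, 4.80 and 4.97 CPM, below all Cryaa-WT libraries (-0.72 ± 0.25, edgeR adjusted p = 0.0457). Its call was lost without any 1 of the libraries except Cryaa-WT replicate 2, with adjusted p (edgeR) between 0.0884 and 0.159 where it was lost. It was also lost with every gene with at least 1 count (edgeR adjusted p = 0.0537) and with the replicate block (edgeR adjusted p = 0.0555). The calls of Hmox1 and Gclc were kept in all alternatives.

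The scaling between the ages matters for this comparison. The TMM factors ranged from 1.20 to 2.27 at 2 days and from 0.488 to 0.774 at 14 days. Crystallin genes took a larger share of the reads in every Cryab-WT library than in any Cryaa-WT library. The part of that share in the effect of the scaling was not tested. With library size alone all genes together had a median of -1.61, against -0.07 with TMM, and 83.2% of them were called, 157 higher and 11439 lower. In that fit all 10 members were called, and Gclm, Gss, Gpx1, Prdx6, Srxn1 and Nqo1 turned from higher to lower. Hmox1 (1.28) and Gclc (0.62) remained higher. Ratios within a library do not depend on this choice. Gclc reads per Gclm read were 0.838 to 1.24 in Cryaa-WT and 2.32 to 3.62 in Cryab-WT, and Hmox1 reads per Gpx1 read were 1.12 to 1.38 and 5.18 to 6.56. Neither ratio overlapped between the WT groups (mean log2 differences 1.60 and 2.19). These are a description as well. Over all groups, Gclc to Gclm stayed at or under 1.36 in the 9 libraries at 2 days and at or above 2.04 in the 9 at 14 days.

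**Figure D4:**
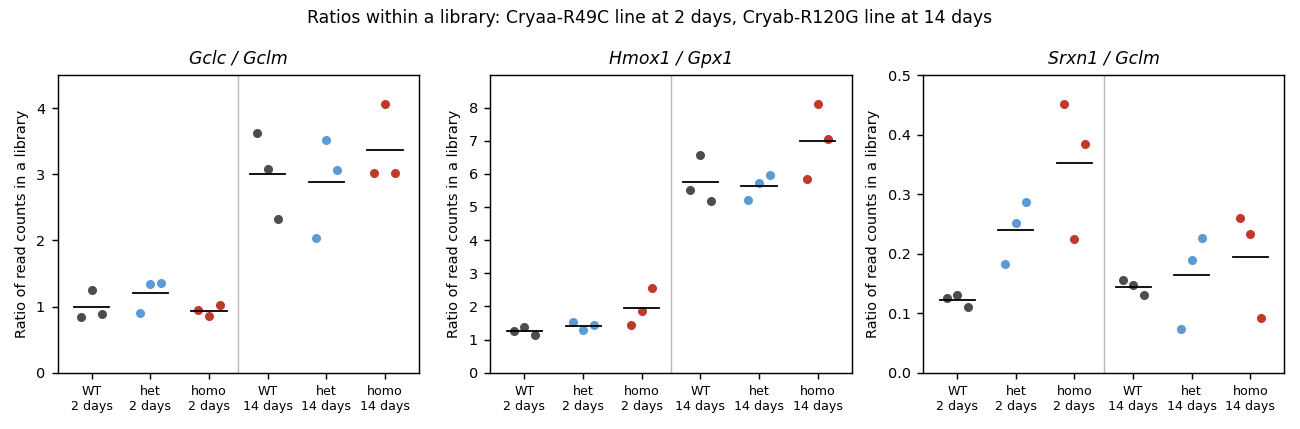
Ratio of read counts of a pair of genes within each library, on axes that start at 0. Points are libraries, bars are group means of 3, and colours are as for the plot of CPM by library. Gclc to Gclm and Hmox1 to Gpx1 separate the ages in all 18 libraries, and Srxn1 to Gclm is higher in Cryaa-R49C-homo (0.224 to 0.451) and Cryaa-R49C-het (0.183 to 0.287) than in Cryaa-WT (0.110 to 0.130).

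Related genes also differed between the WT groups, under TMM scaling, where 23.2% of all genes were called (1634 higher and 1603 lower). The counts of the lists are given for this scaling only, and library size alone gave 157 higher and 11439 lower genes. Of 28 other glutathione enzymes 15 were higher and 3 lower at 14 days, of 5 superoxide and catalase genes 4 were higher and 0 lower, and of 18 other NRF2 targets 8 were higher and 0 lower. The median log2 differences were 0.75, 0.98 and 0.50, and that of all genes was -0.07. Of 16 other thioredoxin and peroxiredoxin genes 3 were higher and 2 lower, of 17 other selenoprotein genes 5 and 4, of 11 NRF2 regulators 4 and 1, and of 8 ATF4 and CHOP genes 4 and 0, with medians of 0.30, 0.22, 0.03 and 1.03. Of 9 cysteine supply genes, 0 were called in either direction (median -0.36). All of the 13 macrophage and microglia markers were lower at 14 days, with sums of 1.3 to 2.9 CPM in Cryab-WT, against 11.3 to 26.8 CPM in Cryaa-WT. Fibre markers were higher, with 7 of 10 called and sums of 350891 to 403160 CPM. Of the other markers, 6 of 8 vessel, 5 of 7 pigment cell and 3 of 7 epithelium markers were lower, 3 of 9 retina markers were higher and 0 of 5 erythrocyte markers were called. The part of these cell types in the differences between the WT groups was not tested.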

How the data were processed

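RNA from pooled whole lenses was sequenced in 18 libraries, 3 for each of 6 groups, taken from the sample titles because 6 Cryab libraries carry the Cryaa mutation in their genotype field. The authors sequenced single reads of cDNA, aligned them with STAR 2.0.4b to GRCm38 with Ensembl annotation and counted uniquely aligned, unambiguous reads per gene with Subread featureCounts 1.4.5. The strand setting is not given in the sources used here. The deposited counts are whole numbers without normalization, in 41422 lines for 40800 genes (a gene with several Entrez identifiers repeats identical lines, of which 1 was kept). Deposited CPM, RPKM and log2 values were not used. Library totals were 14272174 to 29639719 counts. Intervals and tests cover these libraries, and low counts limit precision for Nqo1 and Srxn1.

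edgeR 4.0.16 in R 4.3.3 was run with TMM and 1 model of the 6 groups over all 18 libraries, with robust dispersions and the quasi-likelihood test for 8 contrasts. Genes were filtered with filterByExpr (13938 tested). The study's filter, 1 count in any library (26547 genes), gave an infinite prior df, that is 1 shared spread for all genes, and was run as an alternative. SE is the absolute log2 fold change over the square root of F. The fit was tested on simulated data. Levels per kilobase used the joined exon length of each gene in the GENCODE annotation of GRCm38. Promoter windows and gene positions were RefSeq and Ensembl GRCm38. Alternatives were DESeq2 1.42.0, its size factors, library size alone, no crystallin genes and no Gm42418, a likelihood-ratio test, a replicate block, only the 6 libraries compared and each library left out. Ratios within a library were added after seeing the data. The members and lists were chosen with earlier results of these data known. All 10 members are named. From each related list, up to 3 called genes with the largest difference in homo against WT are named, and Nfe2l2, Keap1 and Slc7a11, which were not called, were named after their values were seen. Replicate numbers paired the libraries in 1 comparison, Cryab-R120G-homo against Cryab-WT, where same-numbered deviations from the group means had r = 0.28, 0.18 and 0.16 over genes. The pairing comes from these correlations, since the labels do not say what the numbers mark. The titles of the Cryab libraries carry a further number each, adjacent in same-numbered het and homo libraries, whose meaning is not given in the sources used here.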

Additional observations from a re-analysis of the deposited data

Results flagged for a closer look

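Srxn1 responded differently in the 2 lines. Its homo effect in the Cryab-R120G line less that in the Cryaa-R49C line was -2.42 ± 0.46 on the log2 scale (edgeR interaction contrast, adjusted p = 0.00392), with all 3 Cryaa-R49C-homo libraries above all 3 Cryaa-WT libraries and with overlap between Cryab-R120G-homo and Cryab-WT libraries. Line and age cannot be told apart in this difference. With each of the 12 libraries left out in turn, the difference lay between -2.62 and -2.19 (edgeR adjusted p at most 0.0159).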

How the results depend on the processing

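In Cryaa-R49C-homo against Cryaa-WT, 3 members were called (9.79% of all genes), against 4 with DESeq2 (12.2%), 6 with the likelihood-ratio test (20.7%), 1 with only the 6 libraries of the comparison (3.70%), and 1 to 8 when a library was left out. In Cryaa-R49C-homo against Cryaa-R49C-het, 5 were called (8.32% of all genes), against 5 with DESeq2 (11.1%), 9 with the likelihood-ratio test (21.9%), 1 with only the 6 libraries (2.20%) and 1 to 9 with a library left out. For the difference between the lines the count was 1 (2.91% of all genes). It was 2 with every gene with a count (798 of 26547 genes), 7 with the likelihood-ratio test (10.4%) and 1 to 8 with a library left out. For Cryab-WT against Cryaa-WT it was 3 (23.2% of all genes), against 10 with library size alone (83.2%) and 2 to 3 with a library left out. There the log2 fold change became -0.97 for Gclm, -1.13 for Gss, -0.94 for Gpx1, -1.17 for Prdx6, -0.74 for Srxn1 and -1.43 for Nqo1, because the median of all genes moved to -1.61. With a library left out, the count stayed at 0 in the other 4 comparisons. In Cryaa-R49C-homo against Cryaa-WT, library size alone moved the median of all genes to 0.41 and the calls to 1884 higher and 254 lower, against 679 and 685. All genes called there were 1364, against 2887 with the likelihood-ratio test, 478 with the 6 libraries and 731 to 3092 with a library left out. Over all alternatives, the genes called were 294 to 4132 in Cryaa-R49C-homo against het (1160 in the report), 244 to 1800 for the difference between the lines (406) and 1782 to 11596 in Cryab-WT against Cryaa-WT (3237). They were 0 to 17 (1) and 0 to 140 (1) for the het comparisons with WT, 1 to 302 (7) for Cryab-R120G-homo against Cryab-WT and 0 to 15 (0) against het. The cause of the other changes was not tested.

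The replicate block changed no member call in Cryab-R120G-homo against Cryab-WT, where every same-numbered pair had a correlation above 0.1. With the block 0 members and 18 genes were called there, against 7 genes without it. In the other comparisons within a line at least 1 pair had a correlation of 0.1 or less. The contrasts between the lines were not examined in this way. In Cryab-R120G-homo against het 0 members were called with the block, as without it. With the block, 3 members were called in Cryaa-R49C-homo against Cryaa-WT, against 10.3% of all genes. There the adjusted p (edgeR) of Txnrd1 was 0.0557 and that of Hmox1 0.0131. Depth limits Nqo1 and Srxn1, at 9 to 203 reads a library.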
